A study of Xenopus laevis with 3 samples.

Results

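The otolith and acellular membrane genes are otos, otoa, otor, otop3, zpld1 and cyba, whose products act in the mineral bodies, gels and fluid spaces of the inner ear. They were chosen by gene symbol, with copy suffixes such as .L and .S removed. The rule uses no measured values, but the list of genes was drawn up when earlier results of these data were known. All 6 genes had a probe set, a group of short probes for a transcript, among the 9240 genes that the platform annotation names with a probe set of their own. They rest on 7 of the 32475 frog probe sets, because otos has a probe set for each of its copies. X. laevis carries many genes as a pair of such copies, L and S, left by an old genome duplication.

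RNA was taken from the inner ears of X. laevis larvae in 3 biological replicates, and each was read on its own Affymetrix GeneChip. The larvae were at stages 56 to 58 and 38 to 44 days old, and replicates 1, 2 and 3 pooled the ears of 10, 7 and 8 animals by the labels, which weighed 0.55, 0.59 and 0.48 g on average. The count for replicate 2 is below the range of animals per sample in the study's methods, a difference that the sources used here do not settle. They came from a commercial supplier, and no genotype or treatment is given in the labels. There was 1 condition, so each value describes the larval inner ear and no groups were compared. The pools hold every cell type of the ear, so fewer cells of a type and less RNA per cell cannot be told apart.

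The sensory patches of the ear are covered by acellular structures. Otoliths or otoconia, crystals of calcium carbonate in a protein matrix, weigh on the hair cells of the gravity organs, gel-like cupulae stand over those of the semicircular canals, and tectorial membranes lie over those of the auditory organs. Supporting cells and non-sensory epithelium secrete these structures and hold them to the epithelium. In mammals, loss of such genes leads to deafness or to faults of balance.

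The deposited GCRMA values are log2 intensities that range from 1.62 to 15.94. The array medians were 7.49, 7.50 and 7.53, and Pearson's r between arrays over the frog probe sets was 0.994 to 0.996, a description across probe sets that share the arrays' normalization. Of the marker lists that were set for the tissue, 10 of the 11 otic epithelium and supporting cell genes with a probe set had one that was called, pax8 being the exception, and so did 2 of 2 hair cell genes, which were myo6 and calb1 of a list of 15. Of all genes with a probe set 78.7% had one that was called, so these counts do not set the lists apart from other genes. A probe set was called when its mean was above the study's expression criterion of 4 at an adjusted p under 0.05 in a one-sided moderated test (limma). Probes differ in brightness, so a value is set against 4 and against the same probe set on the other arrays, and no order of transcript abundance was drawn from the members' values.

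Otos, otoa, otor, zpld1 and cyba were above the criterion in every pool, and otop3 was under it in every pool. Of the 7 member probe sets 6 were called, for 5 of the 6 genes, beside 63.1% of all frog probe sets, 71.8% of the frog probe sets with 1 gene symbol, 78.7% of genes counted by any of their probe sets and 72.9% of genes with exactly 1 probe set. Values of 4 or higher on all 3 arrays were seen for the same 6 member probe sets and for 63.5% of frog probe sets. With so few members the counts do not set them apart from this background. Of the 21 values 18 were 4 or higher, and the remaining values belong to otop3.L, so no call rested on a single array.

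**Figure D1:**
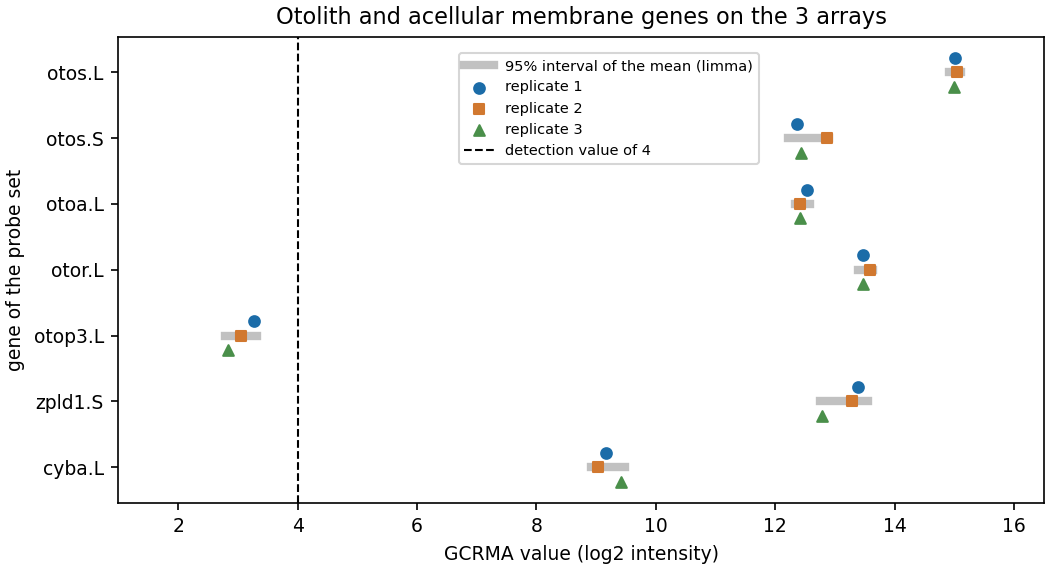
GCRMA values (log2 intensity, x axis) of the 7 member probe sets, with replicates 1, 2 and 3 as separate points and the 95% interval of the mean from limma as a grey bar. The points of otop3.L lie under the dashed detection value of 4, and those of the other 6 probe sets lie at 9.03 or higher.

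Otospiralin, the product of otos, is a small secreted protein of the connective tissue cells in the mammalian inner ear. The probe set of otos.L (Xl2.49012.1.S1_at) had GCRMA values of 15.01, 15.05 and 14.99 on replicates 1, 2 and 3. The highest array stood 1.04-fold above the lowest in intensity. The mean was 15.02 ± 0.03 (SD, n = 3; 95% interval 14.92 to 15.12), with an adjusted p of 1.16e-07 in limma's test of a mean above 4. This lies near the top of the scale, where 107 frog probe sets had a mean of 15 or higher and probe sets with a mean within 0.5 of otos.L had a median SD of only 0.03, so small differences between pools could be missed here.

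The other copy, otos.S, was read by Xl2.29207.1.S1_at, with 12.37, 12.87 and 12.44 on replicates 1, 2 and 3. Replicate 2 stood apart, 0.46 above the mean of the others on the log2 scale, which is 1.38-fold in intensity. Its mean was 12.56 ± 0.27 (SD, n = 3; 95% interval 12.22 to 12.90), with an adjusted p of 8.92e-07 in limma's test. An SD of this size or larger was seen in 5.94% of the 1853 frog probe sets with a mean within 0.5 of it, whose median SD was 0.10, while 54.0% of the 237 probe sets near otos.L had an SD as large as that of otos.L. The probe sets of both copies were thus above the criterion in each pool, and that of otos.S varied more between pools than most probe sets of its level. Whether the probes of one copy also bind the transcript of the other was not tested. RefSeq lists each otos copy among the older names of the other, so the copies were told apart by gene ID, 447088 for otos.L and 494788 for otos.S.

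Otoancorin, encoded by otoa, fastens the acellular gels to the apical surface of the non-sensory cells in mammals. For otoa.L the probe set Xl2.48725.1.S1_at had 12.54, 12.42 and 12.41 on replicates 1, 2 and 3. The arrays lay within 1.09-fold of each other. The mean was 12.46 ± 0.07 (SD, n = 3; 95% interval 12.33 to 12.59; limma, adjusted p = 1.21e-07), and 70.8% of probe sets near its mean had an SD as large or larger.

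Zpld1 belongs to the proteins with a zona pellucida domain, which polymerize into extracellular filaments, and in mice it is a gene of the semicircular canals and their cupulae. Its probe set, annotated with zpld1.S (Xl2.48961.1.S1_at), had 13.38, 13.29 and 12.79 on replicates 1, 2 and 3. Replicates 1 and 2 were close to each other and replicate 3 was lower. The mean was 13.15 ± 0.32 (SD, n = 3; 95% interval 12.76 to 13.55; limma, adjusted p = 1.15e-06), and the SD and the spread of 1.51-fold in intensity between the highest and the lowest array were the largest of the 7 member probe sets.

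Otoraplin, the product of otor, is a secreted protein of the MIA family that was found in the mammalian cochlea and in cartilage. It was read for otor.L by Xl2.56946.1.A1_s_at, with 13.47, 13.59 and 13.47 on replicates 1, 2 and 3. Replicate 2 was the highest, by 1.09-fold over the lowest array. The mean was 13.51 ± 0.07 (SD, n = 3; 95% interval 13.39 to 13.63; limma, adjusted p = 1.16e-07). The ending s_at of its name marks a probe set whose probes can match more than 1 transcript, so part of this signal may belong to a related sequence. All 6 genes with a probe set on the cartilage and otic capsule list were called, beside 78.7% of all genes with a probe set. Their means were 8.30 to 15.01, and the part of cartilage in the otor value was not tested.

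Cyba encodes p22phox, the membrane subunit that NADPH oxidases share. In mice it is required together with Nox3 for otoconia to form, and it also serves the oxidase of phagocytes. For cyba.L the probe set Xl2.5967.1.S1_at had 9.17, 9.03 and 9.41 on replicates 1, 2 and 3. Replicate 3 was the highest, in contrast to the other member probe sets. The mean was 9.20 ± 0.19 (SD, n = 3; 95% interval 8.91 to 9.49; limma, adjusted p = 2.52e-06).

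Of the NADPH oxidase list, 4 of 6 genes with a probe set were called, cyba among them, beside 78.7% of all genes with a probe set. Cybb, the catalytic subunit of the phagocyte oxidase, had 9.31, 9.48 and 8.93 for cybb.L on replicates 1, 2 and 3, and was lowest on the array where cyba.L was highest. The small GTPases that activate these oxidases were also called. They were rac2.L, at 10.09 ± 0.09 (SD, n = 3), and rac1.L, whose probe sets had 10.37 ± 0.57 and 7.04 ± 0.50 (SD, n = 3 each). The cytosolic subunit ncf4.L and the dual oxidase maturation factor duoxa1.L lay at the floor, at 1.95 ± 0.01 and 1.97 ± 0.01 (SD, n = 3 each).

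Phagocytes also use cyba, so the leukocyte list is given beside it. Of its 15 genes 9 had a probe set and 4 of these were called, beside 78.7% of all genes with a probe set. The called genes were cybb, lyz, lcp1 and coro1a. Their means ran from 4.59 for coro1a.S to 9.24 for cybb.L. The pan-leukocyte marker ptprc, the integrin itgb2, the adaptor tyrobp and the oxidase subunit ncf4 lay near the floor, with means of 1.83 to 2.72 over 7 probe sets. Mpo, the myeloperoxidase of neutrophils, was not called. Of its 3 probe sets 1, annotated with mpo.L, had 4.79, 4.35 and 6.44 on replicates 1, 2 and 3 (limma, adjusted p = 0.0573), and the others were at the floor. This probe set and that of the lysozyme lyz.L, with 8.58, 8.31 and 9.32, were highest on replicate 3, as was cyba.L, while cybb.L was lowest there. The other called genes of the list were not highest there. Lcp1.S, with 7.33, 7.27 and 7.31, was highest on replicate 1, and coro1a.S, with 4.17, 5.07 and 4.54, on replicate 2. The part of leukocytes in the cyba value was not tested.

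Otop3 encodes an otopetrin, a proton channel of the family whose founding member, Otop1, is needed for otoconia in mice. For otop3.L the probe set Xl2.23552.1.S1_at had 3.27, 3.05 and 2.84 on replicates 1, 2 and 3. Every array was under 4. The mean was 3.05 ± 0.22 (SD, n = 3; 95% interval 2.78 to 3.32), and its adjusted p in limma's test of a mean above 4 was 1. The upper end of the interval lies under 4, so otop3 was not detectable by this probe set at the criterion used, which does not show that the transcript is absent.

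The value of otop3.L was also not at the floor of the arrays. The 11444 frog probe sets with a mean under 4 had a median of 2.02 and a median SD of 0.01. Otop3.L had an SD of 0.22, and its arrays lay within 1.35-fold of each other in intensity. This spread was usual for its level, since the 1414 frog probe sets near its mean had a median SD of 0.21. Of these 49.2% had an SD as large or larger. Only 3.58% of frog probe sets, 1161 in number, had a mean from 3 to 4 as otop3.L did. Against a criterion of 3 in place of 4 its adjusted p was 0.447 (limma). Otop1 and otop2, the other otopetrins, are named in RefSeq as L and S copies but no probe set was matched to them, so the family is represented by otop3.L alone.

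The annotation names the L copy for 5 of the 7 member probe sets and the S copy for otos.S and zpld1.S. RefSeq names 9 copies of the 6 genes, of which 7 had a probe set. The copies zpld1.L and cyba.S were matched by none, and their levels were not analysed here. Otoa, otor and otop3 are named in RefSeq as L copies only, and the symbols of all 7 member probe sets were the same in RefSeq by gene ID.

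On replicate 3, 6 of the 7 member probe sets were lower than the mean of the other arrays, as were 60.6% of all frog probe sets, and cyba.L was higher. That share also counts probe sets near the floor, and over the called frog probe sets the median difference was -0.01. The same 6 member probe sets were lower there after quantile normalization and with each array centred on its median. Centring lowered the difference of every member, so it could not have reversed these, and the deposited values were already normalized. The highest array was replicate 1 for otoa.L, otop3.L and zpld1.S, replicate 2 for otos.L, otos.S and otor.L, and replicate 3 for cyba.L. Set against frog probe sets with a mean within 0.5 of their own, an SD as large or larger was seen in 2.30% for zpld1.S and 5.94% for otos.S, but in 42.1% for cyba.L, 49.2% for otop3.L, 54.0% for otos.L, 59.7% for otor.L and 70.8% for otoa.L.

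**Figure D2:**
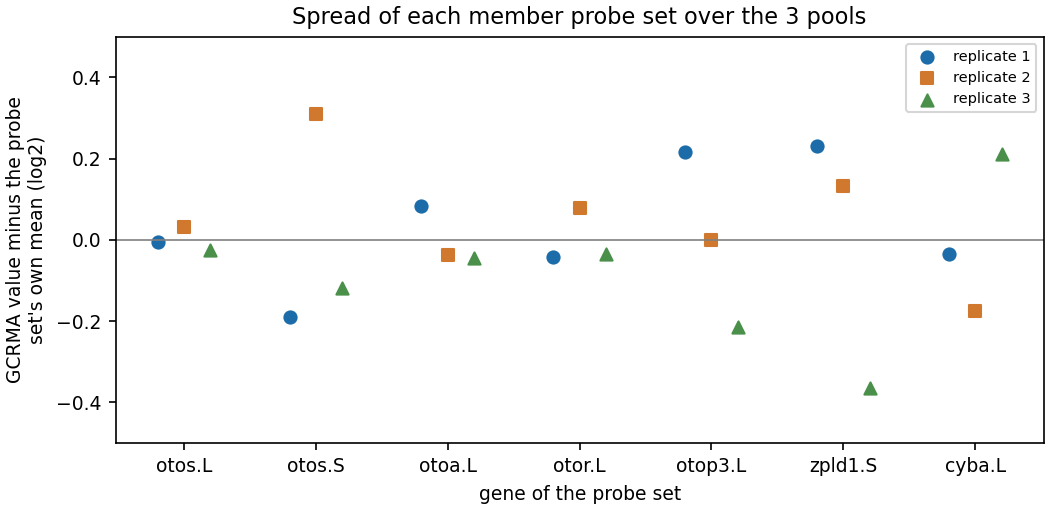
GCRMA value of each member probe set minus its own mean over the 3 arrays (log2, y axis), with replicates 1, 2 and 3 as separate points. The points of otos.L, otoa.L and otor.L lie within 0.13 of each other, while replicate 2 stands above the others for otos.S and replicate 3 stands below them for zpld1.S.

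Zpld1.S was the member with the largest fall on replicate 3. On the log2 scale it fell by 0.55 there relative to the mean of replicates 1 and 2, an intensity 0.684 times as high. Over all called frog probe sets this difference had a median of -0.01, with 5% of probe sets under -0.48 and 5% above 0.52. Among the 1305 frog probe sets with a mean within 0.5 of zpld1.S, 0.843% had a difference as low or lower. This pattern was chosen after the values were seen, and a difference of 1 pool from the others has no replicate, so no test was made. The difference of zpld1.S was -0.58 with each array centred on its median and -0.53 after quantile normalization.

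The other members differed less on replicate 3. Cyba.L was 0.32 higher there, and 12.8% of the 3045 probe sets near its mean had a difference as high or higher. The differences of otos.L, otor.L and otoa.L were -0.04, -0.05 and -0.07, that of otos.S was -0.18 and that of otop3.L was -0.32.

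Marker lists of several cell types are given for replicate 3 beside zpld1.S and cyba.L. Over all called frog probe sets, replicate 3 minus the mean of the others had a median of -0.01. Of these probe sets 5% were under -0.48 and 5% above 0.52, and the share that was higher on replicate 3 was not computed. Of the called probe sets, 16 of 20 on the otic epithelium list, 9 of 12 on the fibrocyte and mesenchyme list and 9 of 10 on the red cell list were higher on replicate 3 than the mean of the others, with median differences of 0.13, 0.16 and 0.19. On the cartilage list 2 of 8 were higher, with a median of -0.10, and on the leukocyte list 2 of 4, with a median of -0.03. These medians lie between -0.48 and 0.52. Several probe sets read the same gene and are not separate support. The 20, 12 and 10 called probe sets of the otic epithelium, fibrocyte and red cell lists cover 10, 6 and 6 genes. The hair cell list rests on myo6.L and the calb1 copies, of which calb1.L had 8.19, 8.15 and 10.79 on replicates 1, 2 and 3 and calb1.S had 8.09, 7.72 and 9.96. Myo6.L did not share this rise, with 12.48, 12.32 and 12.37. The red cell probe sets rose unevenly on replicate 3, and their median hides large rises. Those of hbg1.L were higher there by 2.21 and 2.87, and slc4a1.L by 1.08. Hba3.L, at -0.05, was the called red cell probe set that was lower. Hba1.S, which was not called, was higher by 4.72. The part of these cell types in the members' differences was not tested.

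**Figure D3:**
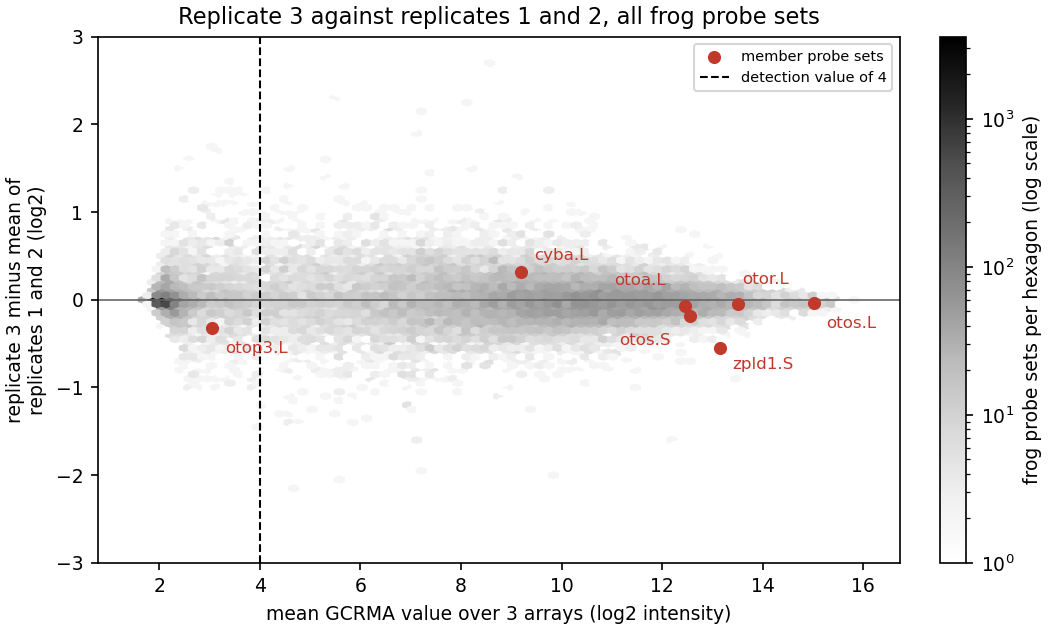
Replicate 3 minus the mean of replicates 1 and 2 (log2, y axis) against the mean GCRMA value over 3 arrays (x axis) for all frog probe sets, counted in hexagons shaded on a log scale, with the 7 member probe sets in red. Zpld1.S, at -0.55, lies in the lower tail of the probe sets with a like mean, of which 0.843% were as low or lower. Otos.L, otor.L and otoa.L lie near 0.

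The other genes of the same structures, and of the families of the members, were read from fixed lists that hold 67 genes beside the members. A probe set was matched for 23 of them, and 15 of the 23 were called, beside 78.7% of all genes with a probe set. The genes not called were all on the zona pellucida and NADPH oxidase lists, where 0 of 6 and 3 of 5 genes beside the members were called. On the otolith, acellular membrane and matrix lists, 3 of 3, 4 of 4 and 4 of 4 were called. The counts per list are read against the share of all genes, and no list was tested as a set. Genes well known for otoconia and tectorial membranes, among them oc90, otol1, tecta, tectb, otog, strc, ceacam16 and nox3, had no match under these symbols and were not analysed here.

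Sparc, ca2 and kcnj10, the genes beside the members with a probe set on the otolith and otoconia list, were called. Sparc, a calcium-binding matrix protein found in otoconia, had 14.74 ± 0.08 for sparc.L and 14.62 ± 0.03 for sparc.S (SD, n = 3 each). Ca2, a carbonic anhydrase that supplies bicarbonate, had 12.39 ± 0.06 for ca2.L and 11.47 ± 0.13 for ca2.S (SD, n = 3 each), and the potassium channel kcnj10.L had 11.10 ± 0.15 (SD, n = 3). Together with cyba, 4 of the 5 genes with a probe set on the otolith and otoconia list were called, beside 78.7% of all genes, and otop3 was the exception.

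All 6 genes with a probe set on the acellular membrane list were called, otoa and zpld1 included, beside 78.7% of all genes with a probe set. The subunits of collagen IX, a component of the mammalian tectorial membrane that is also abundant in cartilage, ranged from 13.74 ± 0.10 for col9a2.L to 15.01 ± 0.05 for col9a3.L (SD, n = 3 each). Emilin2, a glycoprotein of the mammalian basilar membrane, was called by the probe set of its L copy only. That of emilin2.L had 7.41, 8.18 and 8.64 on replicates 1, 2 and 3, and that of emilin2.S lay at the floor, at 2.02 ± 0.01 (SD, n = 3).

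On the list of matrix and fluid space proteins 6 of 6 genes with a probe set were called, otos and otor included, beside 78.7% of all genes with a probe set. The matrilin matn4.L, a filament-forming matrix protein, had 14.82 ± 0.04 (SD, n = 3). Ptgds, a lipocalin that synthesizes prostaglandin D, had 8.06, 9.06 and 8.52 for ptgds-b and 8.71, 9.20 and 8.73 for ptgds.S on replicates 1, 2 and 3. Both were highest on replicate 2, as was otos.S. Ptgds was picked for this after the values were seen, and other probe sets of the list were highest on replicate 3.

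Of the family of otoraplin, mia2.L, a relative that acts in secretion from the endoplasmic reticulum, was called beside otor, at 11.15 ± 0.08 (SD, n = 3). On the zona pellucida domain list 1 of 7 genes with a probe set was called, beside 78.7% of all genes with a probe set. It was zpld1, and the 6 other genes were not called. The egg coat genes zp2.L, zp4.S, zpd.L and zpax.L had means of 1.88 to 1.97.

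**Figure D4:**
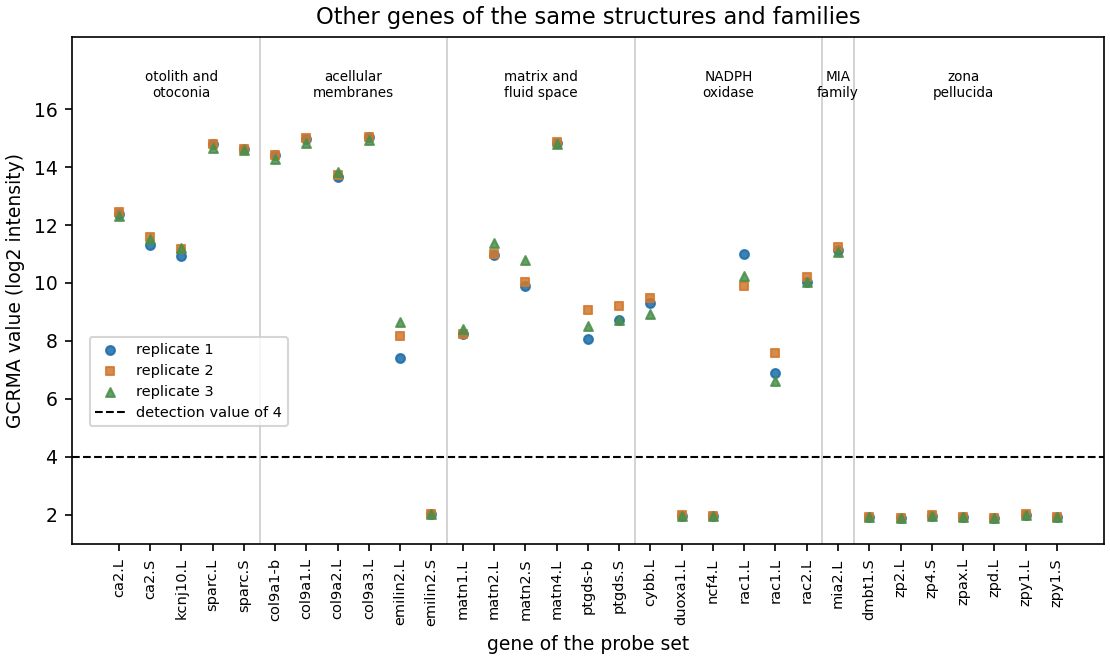
GCRMA values (log2 intensity, y axis) of the probe sets of other genes on the fixed lists (x axis, grouped by list), with replicates 1, 2 and 3 as separate points and the detection value of 4 as a dashed line. Each probe set is shown under the first list that holds it. The probe sets of the zona pellucida list, emilin2.S, ncf4.L and duoxa1.L lie near 2, and the others lie above 6.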

How the data were processed

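The authors used 3 inner ear RNA pools for hybridization to Affymetrix X. laevis GeneChips of version 2. The deposited values are log2 intensities per probe set, for which the authors used GCRMA, a method that corrects the background, normalizes the arrays to each other and then summarizes the probes. The software used for GCRMA is not given in the sources used here. Of its 32635 probe sets, 160 controls and reporters were left out of the fit. Precision is limited by the number of arrays.

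Probe sets were named through the platform annotation, which gives 1 symbol for 15495 frog probe sets, several symbols for 279 and no symbol for 16701. No probe set with several symbols held a member. Symbols were checked by gene ID against RefSeq for assembly v10.1, and no coordinates were used. No sequences were used.

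Each mean was set against 4 in a one-sided moderated test (limma 3.58.1, R 4.3.3). The variance was allowed to depend on the mean, and p-values of the 32475 frog probe sets were adjusted together by the Benjamini-Hochberg method. The fit was tested on simulated data. Summaries (pandas 2.3.3, numpy 2.4.6) and plots (matplotlib 3.10.9) were made with Python 3.11.15. Every member probe set is reported, and genes of the fixed otolith, acellular membrane, otopetrin, MIA and NADPH oxidase lists may be named, with at most the 3 highest and 3 lowest of other lists. Ptgds, matn4, mpo, myo6, calb1, coro1a, itgb2, ptprc, tyrobp, lyz, lcp1, pax8, hbg1, slc4a1, hba3, hba1 and the egg coat genes were named beyond or beside this rule after their values were seen. No rule named genes by likeness of pattern, since 3 arrays of 1 condition give none. Where ptgds, lyz, mpo and pla2g2e are given beside a member for the array on which they were high or low, they were picked after their values were seen. The members and lists were chosen with earlier results of these data known. Alternatives changed the threshold, the normalization, the variance trend, the call, the match of symbols, the probe sets tested, the summary and the arrays used. Each p-value sets the distance of a mean from 4 against the spread between these 3 pools, moderated by the variances of all frog probe sets. No spread beyond that of these pools enters the p-values.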

Additional observations from a re-analysis of the deposited data

How the results depend on the processing

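All 81 alternative values of the member probe sets and of the counts kept their side of the threshold or stayed within 1.5 times the main count. Some of these outcomes were fixed in advance. Centring on the array medians leaves each mean over the 3 arrays unchanged. The median over arrays was judged by whether it lay within the SD of the mean, which always holds for 3 values. A count of 6 among 7 member probe sets also has little room to move. The calls covered 6 member probe sets and 5 member genes with a threshold of 3 or 5, with other normalizations, without a variance trend and with values of 4 or higher on all 3 arrays as the call. Leaving out each replicate in turn gave 6 member probe sets, 5 member genes and 15 list genes each time, and 20329 to 20385 frog probe sets against 20478 with all arrays. Without a replicate the mean ranged from 13.04 to 13.34 for zpld1.S, from 12.40 to 12.65 for otos.S, from 9.10 to 9.29 for cyba.L and from 2.94 to 3.16 for otop3.L. It stayed within 0.03 for otos.L and ranged from 12.42 to 12.48 for otoa.L and from 13.47 to 13.53 for otor.L. No paired analysis was possible because there is 1 condition. The 3 pools limit what can be said of differences between pools.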

Other observations

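Probe sets with related names that the fixed lists did not hold were found after the values were seen. The probe set of tecta.2.S, named after alpha-tectorin of the tectorial membrane, had GCRMA values of 8.36, 8.96 and 8.22 on replicates 1, 2 and 3, with a mean of 8.51 ± 0.40 (SD, n = 3; limma, adjusted p for a mean above 4 of 2.88e-05). Those of otogl2.L, named after the otogelins, were not called, at 1.94 ± 0.002 and 2.46 ± 0.74 (SD, n = 3 each), of which the second had 3.31 on replicate 3 against 2.15 and 1.93 on replicates 1 and 2.

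Pla2g2e, a secreted phospholipase A2, had for pla2g2e.S 13.68, 13.33 and 12.15 on replicates 1, 2 and 3. Otoconins, the matrix proteins of otoconia, carry domains related to such phospholipases, but whether this gene encodes one was not tested. On replicate 3 pla2g2e.S fell by 1.36 on the log2 scale relative to the mean of the others. Zpld1.S was also lower there, as were 60.6% of all frog probe sets, a share that also counts probe sets near the floor. Over the called frog probe sets the difference had a median of -0.01, with 5% of probe sets under -0.48. Pla2g2e.S was picked after the values were seen, and no test of its fall was made.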
